A study of Mus musculus with 21 samples.

Results

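The contractile apparatus of smooth muscle, represented by 10 genes, was followed through 8 weeks of UV irradiation of mouse skin. The genes were Acta2, Actg2, Myh11, Tagln, Cnn1, Des, Lmod1, Smtn, Synpo2 and Mylk. They were taken as every probe set annotated to 1 of these 10 symbols alone, which gave 19 probe sets of the 45101 on the array, for 10 of the 18194 genes that the array represents under a single symbol. All 19 passed the filter on dim probe sets, and no further probe set paired a member with another gene.

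Smooth muscle shortens when myosin filaments pull on actin filaments. Calcium activates the myosin light chain kinase, which phosphorylates the light chain and so switches the motor on, whereas a phosphatase switches it off. Actin filaments are anchored in dense bodies and held in place by a desmin network, and much of this gene set is driven by serum response factor and its partner myocardin. In skin, smooth muscle lies in the walls of blood vessels and in the muscles that raise the hair, and a sheet of striated muscle, the panniculus carnosus, lies under the dermis of the mouse. Acta2 and Tagln are also made by pericytes and by activated fibroblasts, and Des and Synpo2 also by striated muscle.

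The samples were whole dorsal skin of albino hairless female mice (Hos:HR-1), 6 weeks old at purchase, with 3 arrays in each of 7 groups by the labels; the Methods speak of 6 groups of 3. Controls were not irradiated and were sampled at weeks 1 and 8, and UV mice, irradiated 3 times a week, were sampled after week 1, week 2 and then every second week until week 8. The dose began at 1 minimal erythema dose (MED, 100 mJ/cm2, the smallest that reddens the skin) and was raised to at most 4 MED. The arrays were Affymetrix Mouse Genome arrays, whose probe sets report a hybridization intensity given here as its log2 value. Whole skin is a mixture, so fewer cells of a type and less RNA per cell cannot be told apart.

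Array medians lay between 30.1 and 33.3 intensity units. Probe sets at either end of the beta-actin mRNA gave a 3′ over 5′ log2 ratio from 2.26 to 5.14 per array, a ratio that is higher when RNA is less complete. It was above 4 on 8 arrays: array 12 of control week 1, arrays 112 and 114 of UV week 1, array 333 of UV week 4, arrays 441 and 445 of UV week 6, and arrays 552 and 555 of UV week 8. UV weeks 1, 6 and 8 thus have 1 array each at or below 4, namely arrays 116, 443 and 551. The same ratio for Gapdh sorted the arrays only partly alike. On the control week 8 arrays, all at or below 4 for beta-actin, the Gapdh log2 ratio was 5.976, 4.849 and 6.209. It was 6.085 and 5.925 on arrays 552 and 555. The 13 arrays at or below 4 are thus a set by beta-actin alone. Members that moved with the beta-actin ratio are given below beside their results.

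Of the 19 probe sets, 9 lay above the median of their array on all 21 arrays and 10 did not. The only probe set of Cnn1, both further probe sets of Acta2, and 1 dim probe set each of Myh11, Des, Synpo2 and Mylk were at or below the median on at least 20 arrays. The brightest of Myh11 and of Smtn and the second-brightest of Mylk dropped to it on 2, 3 and 1 arrays. A gene is read below at its probe set of highest mean, unless another is named.

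At UV week 6 only Actg2 was lower by adjusted p. At UV week 8 Actg2, Des, Synpo2 and the second-brightest probe set of Mylk were lower in at least 1 comparison. Des and the brightest probe set of Synpo2 lay at the threshold, each with a limma adjusted p of 0.0496. No member was higher in any comparison made. A probe set was called when it changed at least 2-fold with an adjusted p of at most 0.05 (limma, Benjamini-Hochberg over 40540 probe sets), and for comparisons with control week 1 when the controls did not themselves differ 1.5-fold. Des and the second-brightest probe set of Mylk were called lower at UV week 8 against control week 1, which is 2 of the 19 probe sets where 2.59% of all probe sets tested were called. Synpo2 was called lower at UV week 8 against control week 8, 1 of 19 against a background of 1.98%. No member was called at UV week 6 (background 1.96%), week 4 (0.192%), week 2 (0.0247%) or week 1 (0.0123%) against control week 1, and none between the controls (0.0493%).

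By adjusted p alone, with no minimum fold, Actg2 was lower at UV week 6 against control week 1, where 11.7% of all probe sets passed. Actg2, Des and the second-brightest probe set of Mylk passed at UV week 8 against control week 1, 3 of 19 probe sets against 12.1%. In UV week 8 against control week 8, Actg2 and the brightest and the second-brightest probe set of Synpo2 passed, again 3 of 19 against 6.86%. With only 19 probe sets these counts are a description and do not set the genes apart from the rest of the array. No member passed at UV week 1 (0.0123% of all), UV week 2 (0.0617%), UV week 4 (1.13%) or between the controls (0.0592%). At an unadjusted p under 0.05 in limma, 4 of the 19 probe sets were lower in UV week 1 (9.38% of all probe sets), 0 in week 2 (3.37%), 1 in week 4 (6.65%), 8 in week 6 (14.2%) and 7 in week 8 (13.9%). Against control week 8 it was 8 of 19 (12.5% of all), and between the controls 1 was higher (2.39%).

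The median log2 fold change of the 10 genes against control week 1 was -0.37 (UV week 1), 0.09 (week 2), -0.27 (week 4), -0.78 (week 6) and -0.74 (week 8), and -0.69 between UV and control mice of week 8. The medians over all probe sets tested in the same comparisons were 0.07, -0.00224, 0.04, 0.08, 0.09 and 0.09. Over the 19 member probe sets, dim ones included, the medians were -0.041, -0.015, -0.143, -0.423, -0.224 and -0.216. The 10 genes are read at their brightest probe sets, so their medians and the counts that follow are not of the same unit as those of all probe sets. Of the 10 genes, 7 had a mean below control week 1 in UV week 1 (40.3% of all probe sets), 4 in week 2 (50.6%), 9 in week 4 (43.1%), 9 in week 6 (41%) and 10 in week 8 (39.7%), and 10 were below control week 8 (38.5%). The 5 comparisons with control week 1 share these 3 control arrays, so they are not independent of each other.

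**Figure D1:**
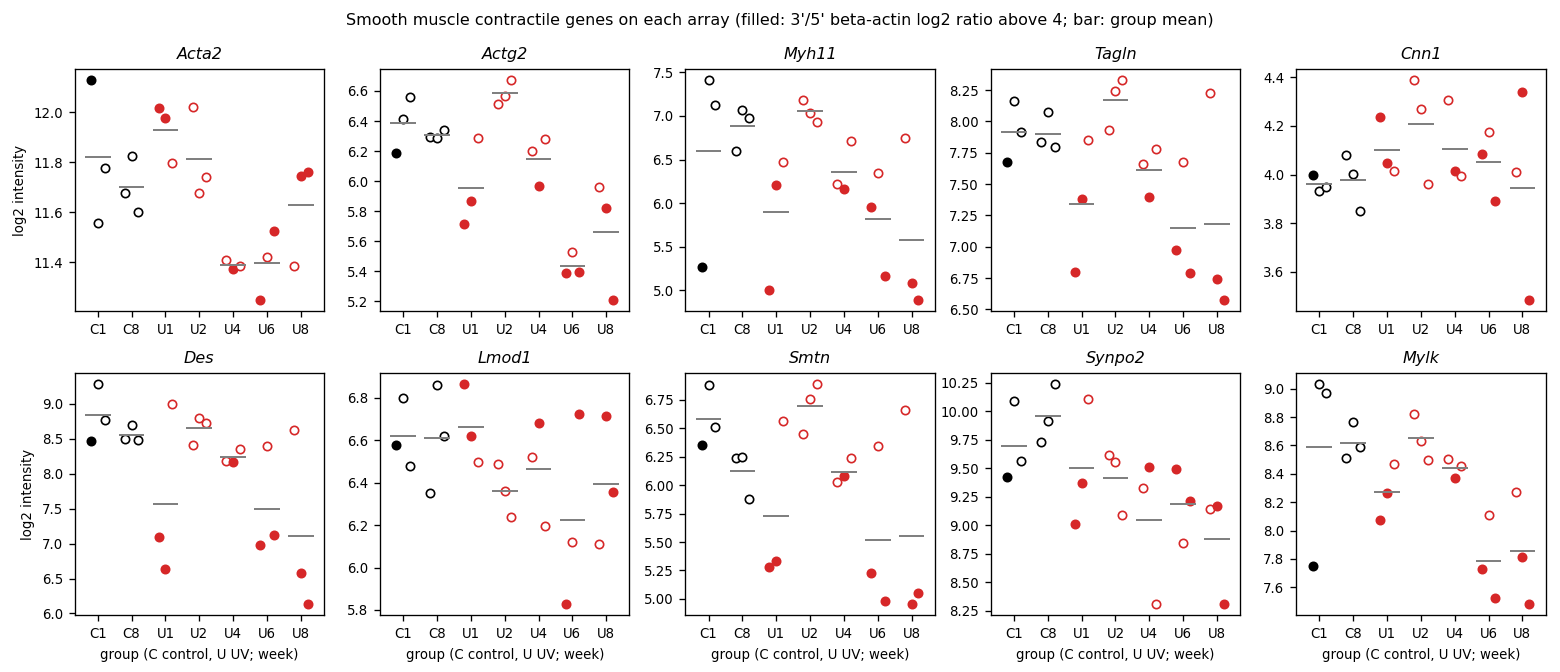
Log2 intensity (vertical axis) of the 10 smooth muscle contractile genes, each at its brightest probe set, on the 21 arrays in the 7 groups (horizontal axis; C1 and C8 are controls at weeks 1 and 8, U1 to U8 UV weeks 1 to 8). Each point is an array, filled where its beta-actin 3′/5′ log2 ratio was above 4, and the grey bar is the mean of 3 arrays; in Tagln, Des and Smtn the open point of UV week 8, array 551, sits within the range of control week 1 or above it.

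Among the actins, Actg2, the gamma actin typical of visceral smooth muscle, was the member with the steadiest late decrease. Its log2 intensity was 6.18, 6.41 and 6.56 on the arrays of control week 1 and 6.29, 6.29 and 6.34 at control week 8. The earlier UV groups gave 5.72, 5.87 and 6.29 (week 1), 6.51, 6.57 and 6.67 (week 2) and 6.20, 5.97 and 6.28 (week 4). At UV week 6 it was 5.39, 5.53 and 5.40, and at week 8 5.96, 5.82 and 5.21. The arrays of UV weeks 6 and 8 all lay below every control array of either week, while those of weeks 1 and 4 overlapped control week 1 and week 2 sat at its upper end. The difference at UV week 6 from control week 1 was -0.95 on the log2 scale (SE 0.17, limma adjusted p = 0.00397), just short of 2-fold. In UV week 8 it was -0.72 against control week 1 (SE 0.17, adjusted p = 0.0141) and -0.65 against control week 8 (SE 0.17, adjusted p = 0.0348).

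The decrease of Actg2 at UV week 6 passed in each of the 21 fits that left out 1 array, with adjusted p from 0.00124 to 0.0225 in limma. On the 13 arrays of low beta-actin ratio it was -0.96. There array 443 alone stands for UV week 6, beside arrays 13 and 16 of control week 1. The decrease of Actg2 at UV week 8 passed in 18 of 21 fits without 1 array. It was lost without array 13 (-0.71, adjusted p = 0.0644), array 16 (-0.64, adjusted p = 0.0615) or array 555 (-0.50, adjusted p = 0.0942). The decrease from control week 8 passed in 16 of 21 such fits and was smallest without array 555, at -0.42 (adjusted p = 0.195). It was also lost without array 51, 53, 55 or 552. In a fit to the 2 compared groups alone, neither week 8 decrease passed. The limma adjusted p there was 0.238 against control week 1 and 0.22 against control week 8.

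Acta2, the alpha actin that most smooth muscle cells, pericytes and myofibroblasts use, was brighter than the array median on every array. Its log2 intensity was 12.13, 11.56 and 11.78 at control week 1, 11.68, 11.83 and 11.60 at control week 8, 12.02, 11.98 and 11.80 in UV week 1 and 12.02, 11.68 and 11.74 in UV week 2. The later UV groups gave 11.41, 11.38 and 11.39 (week 4), 11.25, 11.42 and 11.52 (week 6) and 11.39, 11.74 and 11.76 (week 8). The arrays of UV weeks 4 and 6 all lay below those of control week 1, whereas those of week 8 overlapped them. The difference was -0.43 at week 4 (SE 0.15, limma adjusted p = 0.205), -0.42 at week 6 (SE 0.15, adjusted p = 0.0648) and -0.19 at week 8 (95% interval -0.50 to 0.12, adjusted p = 0.376), so that none passed the threshold. The interval for UV week 8 leaves no room for a 2-fold decrease of Acta2 in this fit. Array 551, of low beta-actin ratio, lay below every control array at 11.39. With the beta-actin ratio as a covariate the UV week 8 difference of Acta2 was -0.31 (limma adjusted p = 0.131).

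The sequence before the start of Acta2 is shown because it carries the kind of element through which serum response factor acts on smooth muscle genes. RefSeq promoter windows on GRCm38.p6 were found for 7 of the 10 members: Acta2, Cnn1, Des, Lmod1, Mylk, Smtn and Synpo2. The CArG box, 2 C, 6 letters of A or T and 2 G, reads alike on both strands and was searched in the 250 bases before the start. No exact match was found in the 7 windows, while 1.47% of all 32851 windows hold 1. With up to 1 G or C allowed among the 6 inner letters, 8.59% of all windows and the Acta2 window alone among the 7 held a match. The matches in Acta2 begin 84 and 34 bases before the start and are in capitals in this stretch of 120 bases (chr19:34255374-34255493, minus strand).
Acta2: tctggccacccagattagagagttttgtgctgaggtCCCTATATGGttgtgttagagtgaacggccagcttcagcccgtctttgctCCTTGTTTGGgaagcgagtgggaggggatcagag
These matches describe the letters in the window and say nothing of the factor's binding in these samples.

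Myh11, the smooth muscle myosin heavy chain that forms the motor, varied more between arrays of a group than any other bright member except Des. Its log2 intensity was 5.27, 7.41 and 7.12 at control week 1, 6.59, 7.07 and 6.98 at control week 8, 7.19, 7.04 and 6.94 at UV week 2 and 6.75, 5.08 and 4.89 at UV week 8. The low control value is array 12 and the high UV week 8 value array 551, so the groups overlap through 1 array on each side. Against control week 1 the difference at UV week 8 was -1.03 (SE 0.51, limma adjusted p = 0.177) and against control week 8 -1.31 (SE 0.51, adjusted p = 0.114). Against control week 1 it was -1.62 without array 551 (adjusted p = 0.0159) and -1.70 without array 12 (adjusted p = 0.0241), but -0.62 without array 13 (adjusted p = 0.538) and -0.69 without array 555 (adjusted p = 0.507). Myh11 also fell with the beta-actin ratio within groups (r = -0.876 over 21 arrays, permutation p = 0.00057, adjusted 0.00285).

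Mylk encodes the myosin light chain kinase and was read by 2 bright probe sets. The second-brightest was 6.73, 7.38 and 6.98 at control week 1, 6.45, 6.73 and 6.57 at control week 8, and 5.79, 5.96 and 6.47 at UV week 1. The later UV groups gave 7.06, 7.02 and 6.96 (week 2), 6.61, 6.46 and 6.93 (week 4), 5.46, 6.43 and 6.06 (week 6) and 6.54, 4.38 and 5.50 (week 8). All arrays of UV weeks 1, 6 and 8 lay below those of control week 1, and at week 8 array 551 lay within the range of control week 8. The difference at UV week 8 from control week 1 was -1.56 (SE 0.36, limma adjusted p = 0.012) and from control week 8 -1.11 (SE 0.36, adjusted p = 0.0662). It was -1.05 at week 6 (SE 0.36, adjusted p = 0.0632) and -0.96 at week 1 (SE 0.36, adjusted p = 0.189).

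The brightest probe set of Mylk was 7.75, 9.04 and 8.97 at control week 1 and 8.27, 7.81 and 7.48 at UV week 8, where array 12 again gave the low control value. Its difference was -0.73 (SE 0.26, limma adjusted p = 0.071). It was -1.15 without array 12 (adjusted p = 0.0025) and -0.94 without array 551 (adjusted p = 0.0132), but -0.51 without array 13 (adjusted p = 0.312). For the second-brightest the call at UV week 8 passed in 19 of 21 fits without 1 array and was lost without array 13 (-1.38, adjusted p = 0.0753) or array 552 (-1.01, adjusted p = 0.0625). On the 13 arrays of low beta-actin ratio, where array 551 alone stands for UV week 8, the second-brightest was at -0.64 and the brightest at -0.74.

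Among the proteins bound to actin filaments, Tagln (transgelin, SM22) had log2 intensities of 7.68, 8.16 and 7.91 at control week 1 and 7.84, 8.07 and 7.79 at control week 8. At UV week 2 they were 7.93, 8.24 and 8.33, at week 6 6.97, 7.67 and 6.79, and at week 8 8.22, 6.74 and 6.57. The other arrays of UV week 8 lay well below the controls and array 551, at 8.22, above them. The difference from control week 1 was -0.77 at week 6 (SE 0.34, limma adjusted p = 0.127) and -0.74 at week 8 (SE 0.34, adjusted p = 0.144). At week 8 it was -1.26 without array 551 (adjusted p = 0.00184), -0.44 without array 555 (adjusted p = 0.501) and 0.18 on the 13 arrays of low beta-actin ratio (adjusted p = 0.734), so the direction for Tagln turns with array 551 as the sole UV week 8 array.

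Cnn1, the calponin that restrains myosin in smooth muscle, stayed between 3.48 and 4.39 on all 21 arrays, at or below the array median on each. Its difference at UV week 8 from control week 1 was -0.01 (95% interval -0.37 to 0.35), and a change in so dim a probe set may not be measurable. Lmod1, a leiomodin that seeds new actin filaments, lay between 5.83 and 6.87. It was 6.58, 6.80 and 6.48 at control week 1 and 6.11, 6.71 and 6.36 at UV week 8, which overlap. The difference for Lmod1 was -0.22 (95% interval -0.66 to 0.21, limma adjusted p = 0.465), and at UV week 6 -0.39 (SE 0.21, adjusted p = 0.196).

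Of the filament network and its anchors, Des, the intermediate filament protein desmin, showed the largest difference of the 10 genes. Its log2 intensity was 8.46, 9.29 and 8.77 at control week 1, 8.50, 8.70 and 8.48 at control week 8, and 7.09, 6.63 and 8.99 at UV week 1. The later UV groups gave 8.41, 8.80 and 8.72 (week 2), 8.18, 8.16 and 8.35 (week 4), 6.99, 8.40 and 7.12 (week 6) and 8.62, 6.58 and 6.13 (week 8). At UV weeks 1, 6 and 8 Des was low on 2 arrays and near the controls on the other, and the 2 low arrays were each time those of high beta-actin ratio. The remaining arrays of high ratio, array 12 of control week 1 and array 333 of UV week 4, were at 8.46 and 8.16. Each was the lowest of its group but lay above those low arrays. The difference at UV week 8 from control week 1 was -1.73 (SE 0.56, limma adjusted p = 0.0496), with overlapping arrays. It was -1.34 at week 6 (SE 0.56, adjusted p = 0.11), -1.27 at week 1 (SE 0.56, adjusted p = 0.23) and -1.45 at week 8 against control week 8 (SE 0.56, adjusted p = 0.108). The call for Des lay at the threshold and passed in 5 of 21 fits without 1 array, with adjusted p from 0.00122 without array 551 (-2.48) to 0.244 at the highest. The difference was -0.40 on the 13 arrays of low ratio, where array 551 alone stands for UV week 8.

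Smtn, smoothelin, a cytoskeletal protein of contractile smooth muscle cells, behaved much as Des. It was 6.36, 6.88 and 6.51 at control week 1, 6.24, 6.25 and 5.88 at control week 8, 6.45, 6.76 and 6.89 at UV week 2, 5.23, 6.34 and 4.98 at week 6 and 6.66, 4.95 and 5.05 at week 8. Again arrays 551 and 443, of low ratio, stood above the others of their groups. The difference from control week 1 was -1.06 at week 6 (SE 0.40, limma adjusted p = 0.0847) and -1.03 at week 8 (SE 0.40, adjusted p = 0.0947). At week 8 it was -1.58 without array 551 (adjusted p = 0.00264). On the 13 arrays of low ratio, where array 551 alone stands for UV week 8, it was -0.04.

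Synpo2, synaptopodin 2, an actin-bundling protein of dense bodies and Z-discs, was lower at UV week 8 than in control mice of the same week at 2 of its 3 bright probe sets. Its brightest probe set was 9.43, 10.09 and 9.56 at control week 1, 9.73, 9.91 and 10.24 at control week 8 and 9.14, 9.17 and 8.31 at UV week 8. All arrays of UV week 8 lay below those of both controls, those of low and of high beta-actin ratio alike. The difference was -1.09 against control week 8 (SE 0.32, limma adjusted p = 0.0496) and -0.82 against control week 1 (SE 0.32, adjusted p = 0.0976). The second-brightest was 7.52, 8.05 and 7.69 at control week 8 and 6.60, 7.08 and 7.19 at UV week 8, differing by -0.80 (SE 0.23, adjusted p = 0.0471). Against control week 1, with 7.42, 6.97 and 7.04, the second-brightest differed by -0.18 (adjusted p = 0.6), since control week 8 was itself higher than control week 1 by 0.61 (unadjusted p = 0.017 and adjusted p = 0.764 in limma). The third bright probe set of Synpo2 was 5.93, 6.36 and 6.17 at control week 8 and 6.01, 6.58 and 5.82 at UV week 8, a difference of -0.01 (95% interval -0.68 to 0.65, adjusted p = 0.979). Each of the 2 Synpo2 results that passed against control week 8 did so in 6 of 21 fits without 1 array. Against control week 1 the brightest passed without array 551 (-0.95, adjusted p = 0.0433) and was -0.53 without array 555 (adjusted p = 0.386).

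**Figure D2:**
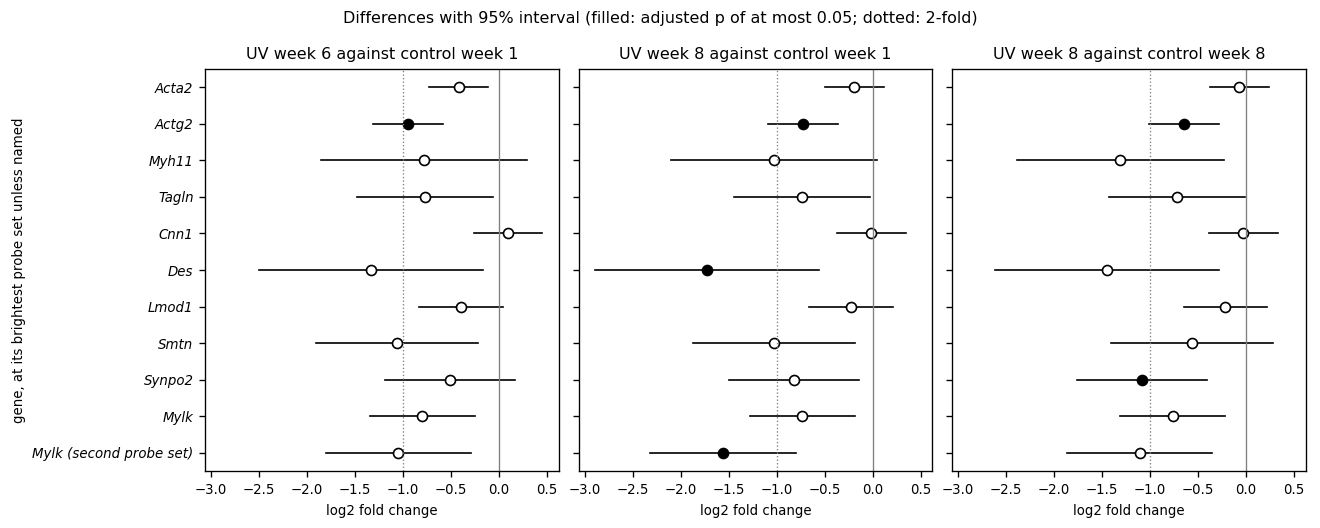
Log2 fold change (horizontal axis) of the 10 genes and of the second-brightest Mylk probe set in 3 comparisons; points are limma estimates from 3 arrays against 3, bars their 95% intervals, filled where the adjusted p was at most 0.05, and the dotted line marks a 2-fold decrease. Actg2 is filled in each panel and has one of the shorter bars, and Des, with the lowest estimate at UV week 8 against control week 1 (-1.73), has the longest.

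The order of the 7 group means was alike in several members. Actg2, Myh11, Tagln, Smtn and Mylk were highest at UV week 2, and the UV weeks 6 and 8 held the lowest means in Actg2, Myh11, Tagln, Des, Smtn and Mylk. Neighbouring groups in these orders mostly did not differ beyond their spread. Of the 6 neighbouring pairs, arrays overlapped in 5 for Actg2, Tagln, Des and Smtn and in all 6 for Acta2, Myh11 and Synpo2. Between successive UV weeks no member passed by adjusted p in limma: from week 1 to 2 (0.0123% of all probe sets passed), from week 2 to 4 (0%), from week 4 to 6 (0.00493%) and from week 6 to 8 (0%). At an unadjusted p under 0.05 the step from week 1 to 2 had 5 of the 19 probe sets higher and 1 lower, where 11% of all probe sets were higher and 11.1% lower. The step from week 2 to 4 had 1 higher (3.15% of all) and 2 lower (2.77%), week 4 to 6 0 higher (6.99%) and 2 lower (5.48%), and week 6 to 8 0 in either direction (2.26% and 2.16%). In the step from week 1 to 2, Actg2 differed by 0.63 (SE 0.17, adjusted p = 0.178) and Myh11 by 1.16 (SE 0.51, adjusted p = 0.208).

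The UV effect at week 8 (against control week 8) minus that at week 1 (against control week 1) was also tested in the same fit. All 19 probe sets had an adjusted p of 1 in limma, and none an unadjusted p under 0.05. For Des the difference of effects was -0.18, and for the brightest Synpo2 probe set -0.89 (unadjusted p = 0.0662 in limma).

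Within groups, members split by how they moved with the beta-actin ratio. With the group means taken off both measures on 21 arrays, Tagln fell with a higher ratio (Pearson r = -0.859, permutation p = 0.00025, adjusted 0.0025; Spearman rho = -0.897, p = 0.00016, adjusted 0.0016). Myh11, Smtn, Des, Mylk and Actg2 also fell with it, with r from -0.876 for Myh11 to -0.689 for Actg2 and adjusted permutation p of at most 0.0153. Acta2 ran the other way (r = 0.687, permutation p = 0.0138, adjusted 0.0197; rho = 0.66, p = 0.0165, adjusted 0.0236). Lmod1 (r = 0.487), Synpo2 (r = -0.177) and Cnn1 (r = -0.0466) did not pass, with adjusted permutation p from 0.138 to 0.909. The 10 tests permuted arrays within groups 100000 times and were two-sided, and p-values were adjusted over the 10. When the 2 arrays with ratios farthest from the median of all arrays (445 and 552) were left out, r was -0.839 for Tagln, -0.856 for Myh11, -0.827 for Smtn, -0.825 for Des, -0.838 for Mylk, -0.864 for Actg2 and 0.642 for Acta2. They were not chosen by distance from their group mean. Arrays 12, 443 and 551, which lie farther from theirs, stayed in, so the influence of those arrays was not tested.

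**Figure D3:**
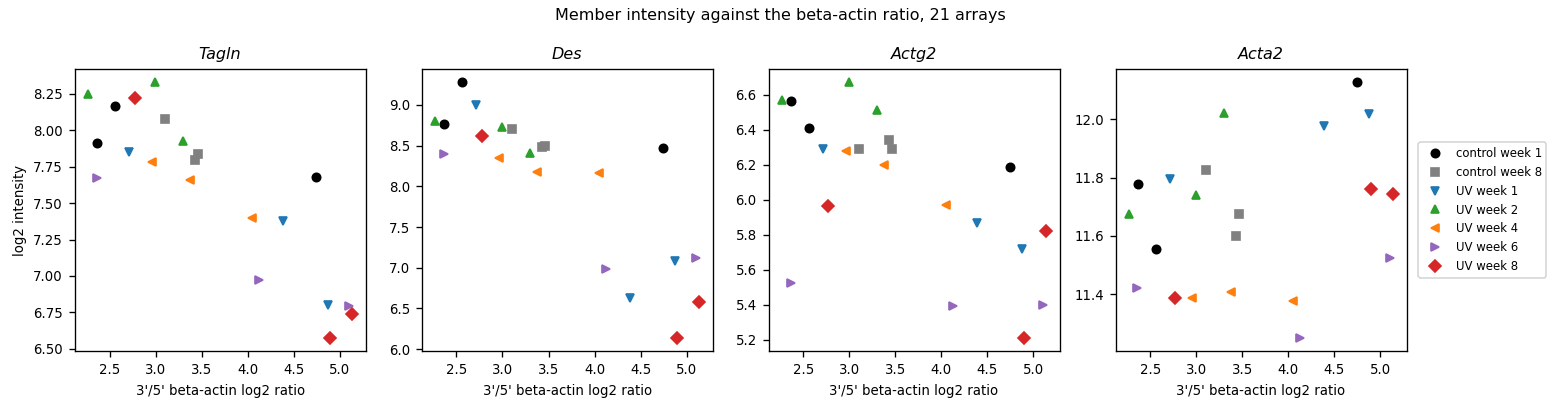
Log2 intensity (vertical axes) of Tagln, Des, Actg2 and Acta2 against the beta-actin 3′/5′ log2 ratio (horizontal axes) on 21 arrays, marked by group. Tagln and Des tend to be lower on arrays of high ratio, Actg2 at UV weeks 6 and 8 is low at ratios from 2.36 to 5.14, and Acta2 tends to be higher on arrays of high ratio within a group.

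With the ratio as a covariate in the limma fit, the second-brightest Mylk probe set was -1.20 at UV week 8 against control week 1 (SE 0.27, adjusted p = 0.00919), Des -1.08 (SE 0.34, adjusted p = 0.0486) and Actg2 -0.57 (SE 0.14, adjusted p = 0.0176). Actg2 at UV week 6 was -0.86 (SE 0.14, adjusted p = 0.00102). Myh11 then was -0.39 (adjusted p = 0.38), Tagln -0.33 (adjusted p = 0.293), Smtn -0.54 (adjusted p = 0.137) and the brightest Mylk probe set -0.44 (adjusted p = 0.114). Synpo2 at UV week 8 against control week 8 was -1.01 at its brightest probe set (adjusted p = 0.0668) and -0.95 at the second-brightest (adjusted p = 0.0116). With the Gapdh 3′/5′ ratio as the covariate instead, Tagln at UV week 8 against control week 1 was -0.68 (limma adjusted p = 0.0275). Smtn was -0.95 (adjusted p = 0.0134), the brightest Mylk probe set -0.69 (adjusted p = 0.0173) and Des -1.63 (adjusted p = 0.00476). Myh11 was -0.94 (adjusted p = 0.0546). For Tagln, Smtn and the brightest Mylk probe set, passing thus depended on which control transcript was used.

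**Figure D4:**
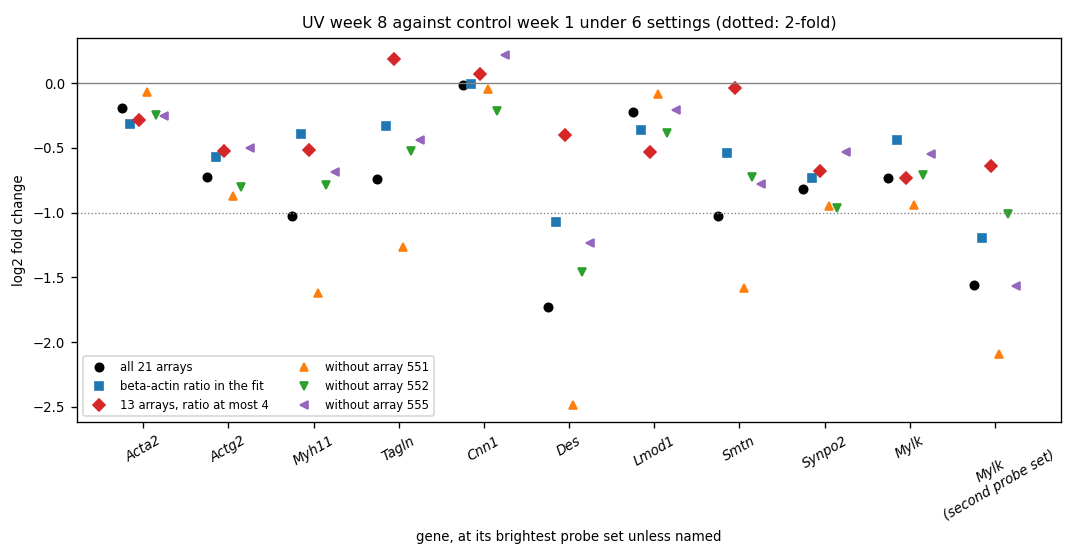
Log2 fold change at UV week 8 against control week 1 (vertical axis) for the 10 genes and the second-brightest Mylk probe set, with all 21 arrays, with the beta-actin ratio in the fit, on the 13 arrays of ratio at most 4, and without each array of UV week 8. Estimates for Des run from -2.48 to -0.40 and for Tagln from -1.26 to 0.18, whereas those for Actg2 stay between -0.87 and -0.50.

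Genes that regulate or work with the contractile proteins were read from lists, which were chosen with earlier results of these data known. They were read at UV week 8 against control week 1, where 12.1% of all probe sets passed by adjusted p. Of 9 regulators of smooth muscle genes, 2 were lower and none higher: Klf4, a repressor of these genes that is also abundant in epidermis (-1.61, limma adjusted p = 0.0475), and Tead1 (-1.30, adjusted p = 0.00275). Srf, serum response factor itself, differed by 0.15 and its partner gene Myocd by 0.01, and neither passed. Of 11 measured genes of the phosphorylation switch, 3 were lower, the phosphatase subunits Ppp1r12b (-0.91, adjusted p = 0.0144), Ppp1r12a (-0.50, adjusted p = 0.0149) and Ppp1cb (-0.39, adjusted p = 0.044). The myosin light chain Myl9 was at -1.79 (SE 0.69, adjusted p = 0.0884) and did not pass.

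Of 11 thin filament genes, 4 were lower and none higher: the tropomyosins Tpm1 (-1.80, limma adjusted p = 0.00122), Tpm3 (-0.81, adjusted p = 0.0478) and Tpm4 (-0.59, adjusted p = 0.0496), and Actg1, the cytoplasmic gamma actin (-0.84, adjusted p = 0.0302). Of 19 measured genes of dense bodies and cell adhesion, 4 were lower, led by Pdlim3, a PDZ and LIM domain protein of muscle (-1.88, adjusted p = 0.0102), and Pdlim7 (-1.19, adjusted p = 0.0419), and talin, Tln1, was higher (0.75, adjusted p = 0.00438). Of 8 measured genes of calcium and cyclic GMP handling and of receptors, Gucy1b1, a subunit of soluble guanylate cyclase, was lower (-0.84, adjusted p = 0.035) and Pln, phospholamban, higher (0.93, adjusted p = 0.0227). The medians were -0.04 for the regulators, -0.35 for the switch, -0.45 for the thin filament, -0.47 for dense bodies and adhesion and 0.10 for calcium handling, where that of all probe sets was 0.09. Against control week 8, where 6.86% of all probe sets passed, 2 of 9 regulators, 2 of 11 switch genes, 1 of 11 thin filament genes and 2 of 19 dense body genes were lower, 1 dense body gene was higher, and 0 of 8 calcium genes passed.

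Markers of other cell types were read from lists too. By adjusted p, 12.1% of all probe sets passed at UV week 8 and 11.7% at week 6 against control week 1. The share was 6.86% at UV week 8 against control week 8. Of 14 skeletal muscle markers 10 were lower in UV week 8 and 5 in UV week 6 against control week 1, and 8 in UV week 8 against control week 8, with medians of -1.38, -0.98 and -1.15. Among them were Myl1, a fast muscle myosin light chain (-1.99, limma adjusted p = 0.000234), and Ckm, muscle creatine kinase (-1.92, adjusted p = 0.04). None of the 14 passed at UV weeks 1, 2 or 4 against control week 1, where the medians were -0.93, -0.53 and -0.53. Of all probe sets, 0.0123%, 0.0617% and 1.13% passed in these 3 comparisons. The log2 of the summed intensity of these 14 genes ranged from 16.66 to 16.96 in control week 1 and from 16.61 to 16.70 in control week 8. In UV weeks 1, 2 and 4 it ranged from 15.79 to 16.60, from 16.03 to 16.60 and from 16.11 to 16.45. It ranged from 15.92 to 16.08 in UV week 6 and from 15.36 to 15.97 in UV week 8. Every UV array thus lay below every control array in this sum. All 14 genes were above the array median on every array. Their part in the results for Des and Synpo2, which striated muscle also expresses, was not tested. Nor was it tested for the partner genes above, Tpm1, Pdlim3 and Ppp1r12b among them, whose RNA in whole skin may come from several cell types.

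Mural cell markers, which mark the pericytes and muscle cells of vessel walls, had 1 of 9 lower at UV week 8 against control week 1, Mcam (-0.61, limma adjusted p = 0.0419), while Rgs5 differed by 0.01 and Pdgfrb by 0.55 (adjusted p = 0.0927). Of 8 endothelial markers 2 were lower, Cdh5 (-0.64, adjusted p = 0.02) and Kdr (-0.51, adjusted p = 0.0173). Of 7 fibroblast markers 3 were lower, Dcn (-1.94, adjusted p = 0.0416), Col1a1 (-1.69, adjusted p = 0.0294) and Lum (-1.39, adjusted p = 0.0315), and of 5 markers of activated fibroblasts 1, Ccn2 (-0.76, adjusted p = 0.0452). Of 4 measured adipocyte markers 3 were lower, among them Lep (-2.27, adjusted p = 0.00338), and of 6 epidermal markers 1, Trp63 (-0.80, adjusted p = 0.0277). The share of all probe sets that passed was 12.1% in that comparison and 6.86% against control week 8. With lists this short, 1 or 2 lower markers do not set a cell type apart from the rest of the array. Against control week 8 the numbers lower were 0 of 9 mural, 1 of 8 endothelial, 2 of 7 fibroblast, 1 of 5 activated fibroblast, 0 of 4 adipocyte and 1 of 6 epidermal markers. The adipocyte markers had a median of -0.67 there, and of -0.83 between the 2 controls, week 8 against week 1.

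**Figure D5:**
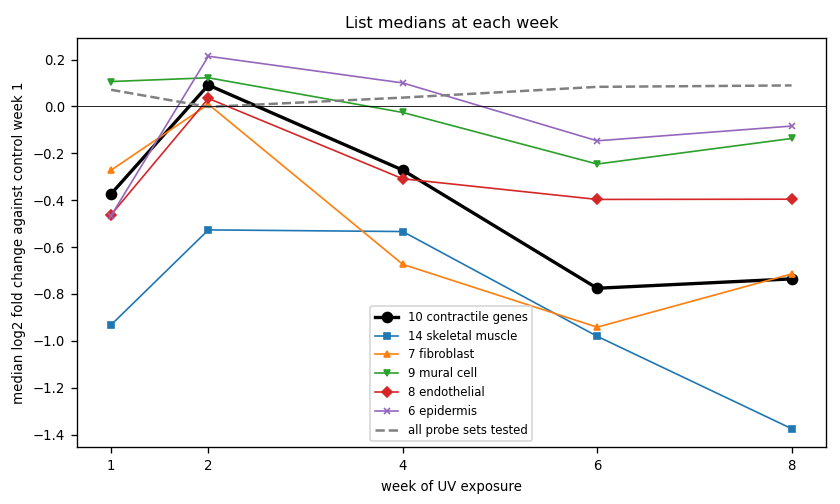
Median log2 fold change against control week 1 (vertical axis) at UV weeks 1, 2, 4, 6 and 8 (horizontal axis) for the 10 contractile genes and 5 lists of cell type markers, each gene at its brightest probe set, and for all probe sets tested. The contractile genes go from 0.09 at week 2 to -0.74 at week 8 and skeletal muscle markers to -1.38, while mural cell markers run from 0.11 at week 1 to -0.25 at week 6 and -0.14 at week 8; the 5 weeks share the same 3 control arrays.

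The mean profile of the 10 members, each scaled to mean 0 and SD 1, was compared with 17393 other genes over the 21 arrays, with no test. The 10 genes most like it were Wdfy1 (r = 0.942), Kdm3b (0.927), Garre1 (0.926), Agrn (0.925), Prps1 (0.925), Pcolce2 (0.912), Aldoa (0.912), Pygm (0.911), Tnxb (0.91) and Selenoo (0.91). Aldoa and Pygm, aldolase and muscle glycogen phosphorylase, serve glycolysis and glycogen breakdown. The arrays share groups and RNA quality: the profile itself had r = -0.696 with the beta-actin ratio, and the 10 genes had r from -0.676 for Kdm3b to -0.829 for Tnxb with it. Within groups the members most alike were Des and Smtn (r = 0.952), Tagln and Smtn (0.935) and Myh11 and Mylk (0.911), and those most opposed Acta2 and Myh11 (r = -0.73), over 21 arrays that share the spread in RNA quality.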

How the data were processed

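Total RNA of dorsal skin was hybridized to Affymetrix Mouse Genome arrays. The deposited values are intensity on a linear scale, summarized and normalized by the authors. The Methods name a Microarray Suite 5 preprocessor in Expression Console and the submitters' notes RMA, with no version, so the algorithm is unsettled. Detection calls were not used here.

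After a floor of 1, log2 was taken. Probe sets below the 20th percentile of the array on every array were dropped, as were 64 control probe sets, leaving 40540. The linear model (limma 3.58.1, R 4.3.3) had a term for each group over the 21 arrays, and the Benjamini-Hochberg adjustment ran across all 40540. Groups hold 3 mice, and p-values measure the spread between these arrays. The call rule (2-fold, adjusted p of at most 0.05, controls within 1.5-fold) was run on simulated data with independent noise for each probe set. That simulation held no shared spread in RNA quality, so it cannot show how the rule behaves under such spread. The members and the lists were chosen with earlier results of these data known. Genes named beside members are up to 4 of each list with the largest change at UV week 8, and the 10 most like the mean profile of the members; Srf, Myocd, Ppp1cb, Pdlim7, Tln1 and Rgs5 were named after their values were seen.

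The alternatives comprised leaving the filter out, a further quantile normalization, a fit to the 2 compared groups, no minimum fold, no limit on the change between controls, both controls averaged, 1 probe set per gene, the beta-actin or Gapdh 3′/5′ ratio as a covariate, each array left out in turn and, chosen after seeing the data, only arrays of ratio at most 4. Promoters are from RefSeq (GRCm38.p6). Python 3.11.15, pandas 2.3.3 and matplotlib 3.10.9 were used for sequences and plots.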

Additional observations from a re-analysis of the deposited data

Results flagged for a closer look

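The third-brightest probe set of Synpo2 moved in opposite ways at 2 weeks. Its log2 intensity was 6.50, 6.69 and 6.72 at control week 1, 7.08, 7.04 and 6.86 at UV week 1 and 5.24, 6.11 and 6.50 at UV week 6, so that all 3 arrays lay above control week 1 at week 1 and at or below its lowest array at week 6. The log2 fold change at week 1 (0.35, SE 0.32) minus that at week 6 (-0.69, SE 0.32) was 1.04, and this difference was not tested. Both weeks share the control arrays, neither change passed in limma (adjusted p = 0.519 and 0.145), and the brightest Synpo2 probe set was at -0.19 and -0.51.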

How the results depend on the processing

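Counts are probe sets of the 19 called lower. At UV week 8 against control week 1, 2 were called; the count was 1 with no intensity filter, with quantile normalization or with 1 probe set per gene, and 0 in a fit to the 2 groups alone or on the 13 arrays of beta-actin ratio at most 4. At UV week 8 against control week 8, 1 was called; the count was 3 with no minimum fold, 4 with the Gapdh ratio as covariate, and 0 with no intensity filter, quantile normalization, the 2 groups alone, the beta-actin covariate or the 13 arrays. At UV week 6 it rose from 0 to 1 with no minimum fold (Actg2) or with the Gapdh covariate (Des). The cause was not tested.

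Leaving out 1 array at a time gave 0 to 1 at UV week 1, 0 to 3 at week 6, 0 to 5 at week 8, 0 to 6 against control week 8, and 0 to 0 in the other 7 comparisons. Without array 551 the counts were 5 and 6 at week 8 and 3 at week 6; without array 12 3 were called at week 6, without array 443 2 and without array 552 1; without array 13 or 552 none was called at week 8 against control week 1 (without array 13 Synpo2 was still called against control week 8), and without array 116 Des was called at week 1. Reversed signs at UV week 8 against control week 1 were Tagln at 0.184 and Cnn1 at 0.072 on the 13 arrays, and Cnn1 between -0.21 and 0.22 with 1 array left out. Actg2 at UV week 6 passed by adjusted p in limma with no filter, quantile normalization, either covariate, both controls averaged, each array left out, and the 2 groups alone (0.0266). At UV week 8 it did not pass with the 2 groups alone, against either control. No paired analysis was possible because no array number occurs in more than 1 group.

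Groups hold 3 arrays, and array 551 is the sole array of low ratio at UV week 8, where Tagln, Des, Smtn and Myh11 are near the controls; the fit to the 13 arrays takes its spread from the other groups. Probe sets at or below the array median, Cnn1 among them, are too dim for a difference to be excluded.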
